A study of Homo sapiens with 5 samples.

Results

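Collagens, laminins and integrins are the main protein families by which cells build an extracellular matrix and hold on to it. Their genes were taken by symbol (COL with a type and chain number, LAMA, LAMB or LAMC with a number, and ITGA or ITGB with a number, V, E or X), and 42 of them were listed among the 12468 genes of the deposited tables, 20 collagens, 10 laminins and 12 integrins. RNA was sequenced from HLF cells, an established line of hepatocellular carcinoma, in 2 experiments. The knockout experiment holds USP28-Ctrl cells, which carry a control guide RNA (sgCtrl), and USP28-KO cells, in which CRISPR with a second guide (sgUsp28) targeted the deubiquitinase USP28. The reconstitution experiment holds USP28-KO cells with a lentiviral control vector (pRRL-Ctrl), with HA-tagged wild-type USP28 (pRRL-Usp28-WT, here USP28-WT) or with an HA-tagged USP28 whose dimers are disrupted by a point mutation (pRRL-Usp28-Mono, here USP28-M), so that all its cells share the USP28 guide RNA and a vector. The series lists 1 sample per condition and names no treatment, and the sources used here do not say how many clones or libraries stand behind a condition.

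The values described here are the average level of each gene over all libraries of an experiment, in log2 CPM (the reads of a gene scaled to the total of its library), as the authors' fit gave it. This average merges the conditions of an experiment, so that USP28-KO cannot be set against USP28-Ctrl, nor USP28-WT against USP28-M, and no spread between replicates can be given. In bulk RNA, more cells with a gene on and more RNA of it per cell cannot be told apart either. The knockout table lists 11102 genes with a median of 5.33 log2 CPM, and that of the reconstitution experiment lists 12342 genes with a median of 4.90. From the steps between the lowest average values, 1 read was worth 0.130 CPM in the knockout experiment and 0.0328 CPM in the reconstitution experiment, which corresponds to about 7700000 and 30500000 reads over all libraries of each. Intervals given below are exact 95% Poisson intervals of the reads worked out in this way, or normal approximations from the same reads for ratios and differences. They cover counting error only. USP28 itself averaged 35.5 CPM in the knockout experiment and 884 CPM in the reconstitution experiment. A check of the single conditions against their labels was not possible from these averages.

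Of the cell type markers, the epithelial keratins KRT8 (11.18 and 12.02 log2 CPM in the knockout and the reconstitution experiment) and KRT18 (10.66 and 11.21) and the mesenchymal VIM (11.71 and 11.69) were high. Of 4 epithelial markers these 2 keratins were listed. All 6 mesenchymal markers were listed in both experiments, 4 of them above the median of all genes, while TWIST1 (4.11 and 4.38 log2 CPM) and ZEB1 (4.31 and 3.49) lay below it. Of 11 hepatocyte markers 1 was listed in the knockout experiment, FGB at 6.003 log2 CPM, and 3 in the reconstitution experiment, among them FGB and SERPINA1 at 3.20 and 1.88 log2 CPM. Of 4 endothelial markers 0 were listed, and of 4 blood cell markers 1, CD68, which encodes a lysosomal protein that is not restricted to blood cells.

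Collagen chains wind around each other into triple helices. Fibrillar collagens make the fibres of connective tissue, type IV collagen makes the sheet of basement membranes, and type VI collagen makes beaded filaments around cells. Laminins are trimers of an alpha, a beta and a gamma chain and are the other main component of basement membranes. Integrins are receptors of an alpha and a beta chain that bind these proteins outside the cell and the actin cytoskeleton, through adaptor proteins, inside it. In the normal liver, fibrillar collagens come mainly from stellate cells and fibroblasts.

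COL4A1 and COL4A2, the main chains of type IV collagen, are transcribed in opposite directions from a shared promoter, and so are COL4A5 and COL4A6. Because the levels of COL4A1 and COL4A2 were far apart, the sequence between them is shown. In RefSeq on GRCh38.p14 the start site of COL4A1, on the minus strand, lies at position 110307157 of chromosome 13, and that of COL4A2, on the plus strand, 127 bases away at 110307284. Of the 42 genes, 31 have an entry in the RefSeq promoter table, which holds 250 bases before and 50 bases after each start. The part that the windows of COL4A1 and COL4A2 share is chr13:110307108-110307333, 226 bases with a GC content of 76.5%, given on the plus strand with the stretch from start site to start site in capitals.

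COL4A1/COL4A2: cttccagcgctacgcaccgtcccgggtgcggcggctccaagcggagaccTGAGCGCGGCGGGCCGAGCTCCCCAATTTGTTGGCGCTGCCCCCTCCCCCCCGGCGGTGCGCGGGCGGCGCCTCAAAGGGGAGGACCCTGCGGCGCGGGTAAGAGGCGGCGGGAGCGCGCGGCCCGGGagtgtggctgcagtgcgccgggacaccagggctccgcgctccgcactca

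The start sites of COL4A6 and COL4A5 on chromosome X are 380 bases apart (108439458 on the minus and 108439838 on the plus strand), and their windows share chrX:108439588-108439708, 121 bases that lie between the start sites, with a GC content of 44.6%.

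COL4A6/COL4A5: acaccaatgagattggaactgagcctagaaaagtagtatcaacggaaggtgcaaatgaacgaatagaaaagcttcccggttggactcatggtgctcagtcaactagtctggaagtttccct

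The following motifs were searched on both strands. The motif CCAAT was found in both shared stretches, with 1 match between COL4A1 and COL4A2 and 2 between COL4A6 and COL4A5. It was present in 7 of the 31 promoters of the families (22.6%) and in 35.7% of all 27305 promoters. The 7 include COL4A1, COL4A2, COL4A5 and COL4A6, so that a match in a shared stretch counts for both genes of the pair. The GC box GGGCGG had 1 match between COL4A1 and COL4A2 and 0 between COL4A6 and COL4A5. It was present in 19 of the 31 promoters (61.3%), with COL4A1 and COL4A2 both counted, and in 44.6% of all promoters. The E-box CACGTG, which MYC with its partner MAX can bind, was present in 1 of the 31 promoters, that of ITGA6, and in 7.43% of all. The AP-1 motif TGANTCA was present in those of ITGA5 and LAMA3 (2 of 31, and 7.76% of all), and TATAAA in 4 of 31 (12.9%) and in 12.0% of all. The 31 promoters are all of genes listed in these cells, while the 27305 were not limited to listed genes. The shares therefore compare unlike sets. A match describes the letters of these windows and not a bound site.

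The collagens together had 2998 CPM in the knockout experiment (2960 to 3037) and 2632 CPM in the reconstitution experiment (2614 to 2650), which was 0.296% and 0.262% of all CPM. COL18A1 alone held 32.6% and 33.5% of these sums. Of 44 annotated collagen genes 15 were listed in the knockout experiment and 20 in the reconstitution experiment, and 24 were in neither table and were not analysed here. The median level of the listed collagens was 5.21 log2 CPM in the knockout experiment, near the median of all genes, and 3.28 log2 CPM in the reconstitution experiment, below it. The larger table reaches to lower levels, and the 5 collagens that it adds had 0.93 to 2.24 log2 CPM. Between genes, levels were compared per kilobase of the longest protein-coding transcript. The intervals do not cover the choice of this length, and which transcripts the cells used was not measured. The median transcript length, also used below, is shorter than the longest coding sequence in some genes.

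Beaded filament chains of type VI collagen and the multiplexin COL18A1 were the most abundant collagens. COL6A2 had 184 CPM per kb in the knockout experiment (179 to 189) and 202 in the reconstitution experiment (199 to 204). COL18A1, the type XVIII chain of basement membranes and the source of endostatin, followed with 148 (145 to 152) and 134 (132 to 136) CPM per kb. Of its annotated exon bases 16.4% overlap those of SLC19A1, on either strand, so that some of its reads may have been assigned differently. COL6A1 came next with 136 (132 to 140) and 103 (102 to 105) CPM per kb. On this length the 3 genes had the same order in both experiments, with intervals of neighbours that did not overlap. Their order depends on the length used. Per kilobase of coding sequence COL6A1 (187) was level with COL18A1 (186) in the knockout experiment. Per kilobase of the median transcript COL4A1 led the collagens, with 203 CPM against 195 for COL6A2 in the knockout experiment and 243 against 214 in the reconstitution experiment. The median transcript of COL4A1, 1597 bases, is shorter than its coding sequence of 5007. Per kilobase of coding sequence COL4A1 had 64.9 and 77.6 CPM, below these 3 genes in both experiments. COL6A3, the large remaining chain of the classical type VI trimer, was listed only in the reconstitution table, at 0.373 CPM per kb (0.309 to 0.445).

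Of the network-forming collagens, COL4A1 had 49.1 CPM per kb in the knockout experiment (47.2 to 51.1) and 58.7 in the reconstitution experiment (57.7 to 59.8). COL4A2 had 5.70 (5.06 to 6.41) and 4.98 (4.68 to 5.30) CPM per kb. COL4A5 had 5.35 (4.73 to 6.04) and 3.33 (3.08 to 3.60), and COL4A6 2.61 (2.197 to 3.10) and 1.40 (1.24 to 1.57). The intervals of COL4A2 and COL4A5 overlapped in the knockout experiment and were apart in the reconstitution experiment. COL8A1, a short network chain, had 2.49 (2.04 to 2.996) and 1.76 (1.57 to 1.97) CPM per kb.

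The fibrillar collagens summed to 294 CPM over 5 listed genes in the knockout experiment and to 59.7 CPM over 7 in the reconstitution experiment, or 9.80% and 2.27% of all collagen CPM. COL11A1, a minor chain of cartilage fibrils that is also made by many carcinomas and their stroma, led them in both experiments, with 26.5 CPM per kb (25.2 to 27.9) in the knockout experiment and 3.02 (2.79 to 3.25) in the reconstitution experiment. COL3A1, a chain of fine reticular fibres, had 10.03 (9.11 to 11.03) and 1.19 (1.03 to 1.37) CPM per kb, and COL1A1, the main chain of type I collagen, 3.29 (2.81 to 3.82) and 1.07 (0.932 to 1.22). COL27A1 had 1.58 (1.28 to 1.94) and 1.10 (0.974 to 1.25), and COL5A1, which helps to start fibrils, 1.11 (0.864 to 1.39) and 1.21 (1.08 to 1.35). COL5A2 and COL11A2 were listed only in the reconstitution table, at 0.422 and 0.297 CPM per kb. In that table the intervals of COL5A1, COL3A1, COL27A1, COL17A1, COL13A1 and COL1A1, which are neighbours in the order of levels, overlapped from each gene to the next.

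Among the remaining collagens, COL12A1, which decorates the surface of fibrils, had 6.77 CPM per kb (6.24 to 7.32) in the knockout and 6.25 (5.998 to 6.52) in the reconstitution experiment. COL9A3, another fibril-associated chain, was listed only in the latter, at 1.89 CPM per kb (1.60 to 2.23). The transmembrane collagen of hemidesmosomes, COL17A1, had 1.21 (0.907 to 1.58) and 1.08 (0.935 to 1.25) CPM per kb, and COL13A1 was listed only in the reconstitution table at 1.07 (0.875 to 1.30).

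**Figure D1:**
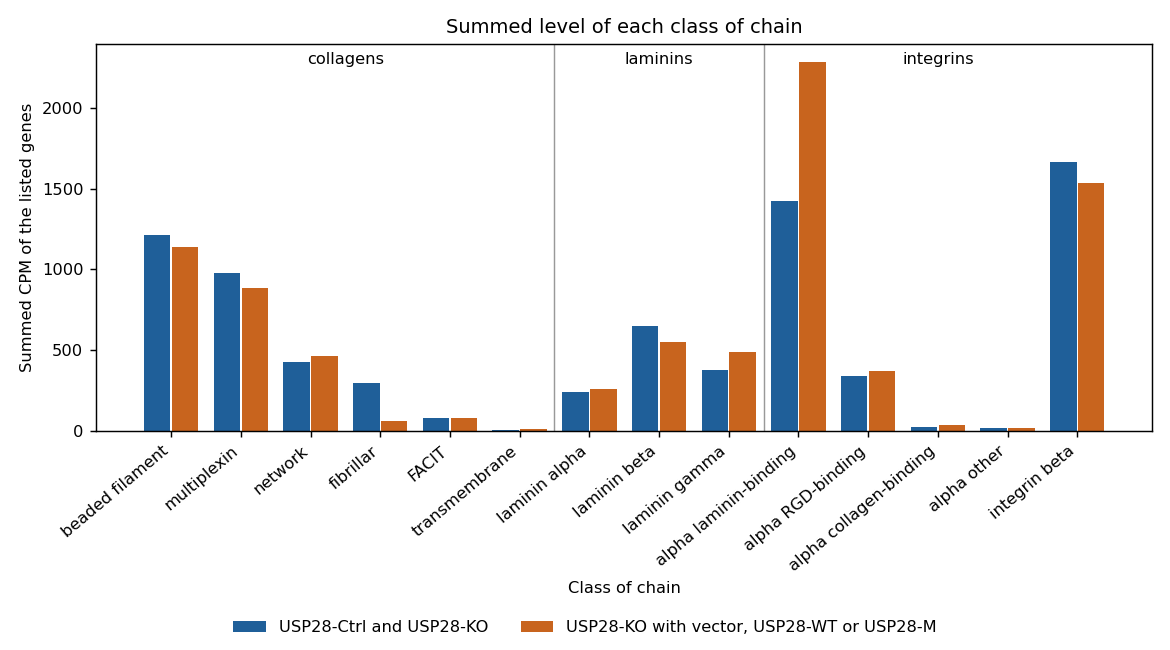
Summed CPM of the listed genes of each class of collagen, laminin and integrin chain in the knockout experiment (blue) and the reconstitution experiment (orange). Fibrillar collagens sum to 294 and 59.7 CPM, and laminin-binding integrin alpha chains to 1425 and 2282 CPM.

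The laminins together had 1274 CPM (1249 to 1299) in the knockout and 1300 CPM (1287 to 1313) in the reconstitution experiment. Of 12 annotated genes 8 and 10 were listed, and 2 were in neither table and were not analysed here. LAMB1 and LAMC1, the beta and gamma chains that most laminins of basement membranes share, were the highest. LAMB1 had 89.7 CPM per kb in the knockout experiment (87.0 to 92.6) and 73.4 in the reconstitution experiment (72.1 to 74.7), and LAMC1 had 47.0 (45.3 to 48.8) and 61.2 (60.2 to 62.2). LAMB2, the beta chain that can take the place of LAMB1, had 21.4 (20.02 to 22.8) and 17.5 (16.9 to 18.1) CPM per kb.

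The alpha chains, which carry most of the binding sites for integrins, were below LAMB2 per kilobase of the longest transcript and of the coding sequence. Per kilobase of the median transcript LAMA3 exceeded LAMB2 in both experiments, and LAMA5 did in the reconstitution experiment. The median transcript of LAMA3 (4250.5 bases) is shorter than its coding sequence (9999), as is that of LAMA5 (6074.5 against 11085). LAMA5, the broadly used alpha chain of adult basement membranes, had 10.6 (9.90 to 11.3) and 12.1 (11.8 to 12.5) CPM per kb. LAMA3, of the epithelial laminin that anchors the epidermis, had 8.63 (8.01 to 9.29) and 9.19 (8.86 to 9.53). LAMA2, the chain of muscle, had 3.13 (2.74 to 3.55) and 1.97 (1.81 to 2.14). LAMA1 and LAMA4 were listed only in the reconstitution table, at 0.409 and 0.357 CPM per kb with intervals that overlapped. Of the exon bases of LAMA1, 11.1% overlap those of other annotated genes. LAMB3, a beta chain that assembles with LAMA3 in epithelia, had 3.11 (2.54 to 3.77) and 6.13 (5.71 to 6.57) CPM per kb. In the knockout experiment the intervals of LAMA2 and LAMB3 overlapped.

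The integrins together had 3465 CPM (3423 to 3507) in the knockout experiment and 4241 CPM (4218 to 4264) in the reconstitution experiment. Of 22 annotated genes that match the rule 11 and 12 were listed, and 10 were not analysed here. ITGB1 is the beta chain shared by most integrins that bind matrix, and ITGA3 pairs with it as a laminin receptor. ITGB1 had 403 CPM per kb in the knockout experiment (396 to 410) and 333 in the reconstitution experiment (329 to 336). ITGA3 had 262 (257 to 267) and 433 (430 to 437) CPM per kb. They were the 2 highest of all 42 genes. On this length ITGB1 led in the knockout experiment and ITGA3 in the reconstitution experiment. Per kilobase of coding sequence the order was the same, with ITGB1 at 634 against 400 CPM and ITGA3 at 662 against 524. Per kilobase of the median transcript ITGB1 led in both, with 2212 against 943 CPM in the reconstitution experiment. That median, 569 bases for ITGB1, is shorter than its coding sequence of 2403.

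ITGA5, the alpha chain of the fibronectin receptor, had 32.7 (30.8 to 34.7) and 58.8 (57.5 to 60.1) CPM per kb. ITGAV, the alpha chain of receptors for vitronectin and latent TGF-beta, had 27.3 (25.9 to 28.7) and 15.6 (15.1 to 16.2). ITGA6, a laminin receptor chain, had 25.9 (24.4 to 27.5) and 29.2 (28.4 to 30.0), and its interval overlapped that of ITGAV in the knockout experiment and that of ITGB5 in the reconstitution experiment. Chains that bind collagen were near the bottom. ITGA1 had 1.49 (1.24 to 1.77) and 0.768 (0.677 to 0.870) CPM per kb, ITGA2 0.876 (0.656 to 1.15) and 2.67 (2.47 to 2.88), and ITGA10 was listed only in the reconstitution table at 1.07 (0.911 to 1.24). ITGAE, the alpha chain of a receptor of lymphocytes for E-cadherin, had 3.85 (3.17 to 4.61) and 4.05 (3.69 to 4.43), with 7.59% of its exon bases shared with other genes.

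Of the other beta chains, ITGB5 and ITGB3 pair with ITGAV, and ITGB4 pairs with ITGA6 in hemidesmosomes. ITGB5 had 14.3 (13.0 to 15.6) and 28.3 (27.4 to 29.2) CPM per kb, ITGB4 7.53 (6.76 to 8.37) and 16.8 (16.3 to 17.5), and ITGB3 8.28 (7.28 to 9.35) and 13.7 (13.1 to 14.4). Of the exon bases of ITGB3 in GENCODE release 29, 51.6% are shared with the gene AC068234.1. Whether the authors' counting used an annotation with that gene is not given, so an effect on the level of ITGB3 is not known. The intervals of ITGB3 and ITGB4 overlapped in the knockout experiment and were apart in the reconstitution experiment.

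Chains that assemble with each other often differed in level per length. Of 17 pairs chosen for this, COL1A1 with COL1A2 and COL8A1 with COL8A2 were not analysed here, and 15 had values in at least 1 experiment. COL4A1 was 8.61 times as high as COL4A2 in the knockout experiment (95% interval 7.62 to 9.73) and 11.8 times (11.1 to 12.6) in the reconstitution experiment. COL4A5 was 2.05 times (1.66 to 2.51) and 2.39 times (2.08 to 2.74) as high as COL4A6. With the median transcript length these 2 ratios were 5.79 and 6.75, and with the coding sequence 1.98 and 2.31. In both pairs the gene with the higher level was the same in each experiment. Of the exon bases of COL4A2, 0.492% overlap those of its antisense genes, and of those of COL4A1 0%.

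COL6A1 was below COL6A2, at 0.739 times its level (0.710 to 0.770) in the knockout experiment and 0.512 times (0.501 to 0.523) in the reconstitution experiment. COL6A1 was 277 times as high as COL6A3 (232 to 331) in the reconstitution experiment, which alone lists both. This was the most unequal of the pairs. LAMC1 was 171 times as high (136 to 216) as LAMA4, 43.3 times with the median transcript length and 234 times with the coding sequence. The median transcript of LAMA4, 895 bases, is shorter than its coding sequence of 5469. COL5A1 was 2.88 times (2.28 to 3.63) as high as COL5A2.

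Within the laminins, LAMC1 was 4.45 (4.13 to 4.79) and 5.05 times (4.88 to 5.23) as high as LAMA5. LAMB1 was 1.91 times (1.82 to 2.002) as high as LAMC1 in the knockout experiment and 1.199 times (1.17 to 1.23) in the reconstitution experiment. LAMC1 was 2.201 times (2.04 to 2.37) and 3.498 times (3.36 to 3.64) as high as LAMB2. The ratio of LAMB1 to LAMC1 in the reconstitution experiment was 0.779 per kilobase of coding sequence, so that the order of these genes depends on the length used.

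Within the integrins, ITGB1 was 12.3 times (11.6 to 13.1) as high as ITGA5 in the knockout experiment and 5.66 times (5.52 to 5.80) in the reconstitution experiment. With the median transcript length these ratios were 47.9 and 22.0, and with the coding sequence 13.7 and 6.31. ITGA6 was 3.44 times (3.05 to 3.88) and 1.73 times (1.66 to 1.81) as high as ITGB4, and ITGAV 3.30 times (2.89 to 3.77) and 1.14 times (1.07 to 1.21) as high as ITGB3. For ITGA6 over ITGB4 the median transcript length gave 5.35 and 2.70, and the coding sequence 5.27 and 2.66. For ITGAV over ITGB3 the median transcript length gave 3.22 and 1.11, and the coding sequence 4.36 and 1.51. ITGAV was 1.91 times (1.72 to 2.12) as high as ITGB5 in the knockout experiment and 0.553 times (0.528 to 0.579) in the reconstitution experiment. With the median transcript length the ratio was 0.498 in the knockout experiment, below 1 as well, and with the coding sequence it was 2.34. The median transcript of ITGB5, 825 bases, is shorter than its coding sequence of 2397. The order of ITGAV and ITGB5 there was kept with the coding sequence and turned only with this median.

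The levels of the 2 experiments were then set side by side. The authors normalized them separately, and the cells, vectors and number of conditions differ. Both averages merge several conditions, so that an effect of USP28 and a difference between experiments cannot be told apart. No test was made. Over the 10976 genes listed in both, the median of the log2 level in the reconstitution minus that in the knockout experiment was -0.12, and differences are given relative to it. A centred difference of at least 1 on the log2 scale was found in 2.41% of all genes upwards and in 6.61% downwards. Of the 34 genes of the families listed in both experiments, 4 were higher by this measure and 3 lower. Their median was -0.03, and 16 lay above 0. Their levels kept much of their order, with a Spearman's rho of 0.883 over these 34 genes.

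Of 15 collagens 3 were lower by at least 1, all of them fibrillar, and 0 were higher. COL11A1 averaged 7.60 log2 CPM in the knockout and 4.47 in the reconstitution experiment, a centred difference of -3.01 (-3.15 to -2.88). COL3A1 averaged 5.80 and 2.72, a difference of -2.95 (-3.19 to -2.71). COL1A1 averaged 4.47 and 2.84, a difference of -1.504 (-1.79 to -1.21). The first of these genes stood at percentile 0.0911, the second at 0.109 and the third at 2.07 of the differences of all genes. The fibrillar genes COL27A1 and COL5A1 had differences of -0.40 (-0.74 to -0.06) and 0.25 (-0.12 to 0.62). The median over the collagens was -0.27, and the intervals of COL18A1, COL12A1, COL17A1 and COL4A2 also included 0, as that of COL5A1 did.

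Of 11 integrins 3 were higher by at least 1 and 0 lower, and the median was 0.85. ITGA2 averaged 2.78 log2 CPM in the knockout and 4.39 in the reconstitution experiment, a centred difference of 1.73 (1.33 to 2.13). ITGB4 averaged 5.48 and 6.64, a difference of 1.28 (1.12 to 1.45), and ITGB5 5.96 and 6.95, a difference of 1.11 (0.97 to 1.25). ITGA5, ITGB3 and ITGA3 had differences of 0.97, 0.85 and 0.85, and ITGAV and ITGA1 of -0.68 and -0.83. Of 8 laminins LAMB3 alone was higher by at least 1, with 3.74 and 4.72 log2 CPM and a difference of 1.10 (0.80 to 1.40), and the median was 0.07.

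The differences were correlated with the GC content of the longest transcript, with a Spearman's rho of 0.488 across 10332 genes. They hardly varied with its length (rho = -0.019). The median GC content was 54.4% over the 34 genes and 47.9% over all genes. Genes were therefore also centred on the median of those in the same of 20 bins of GC content. These medians rose only at lower GC content. The median was -0.88 in the lowest bin and -0.20 in that of ITGA6 (42.9% GC). It was 0.13 in the bin of ITGB5 (54.3% GC) and 0.02 in the highest bin. The difference was then -3.15 for COL11A1, -3.19 for COL3A1, -1.70 for COL1A1, 2.08 for ITGA2 and 1.10 for ITGB4. ITGB5 and LAMB3 fell below 1, to 0.86 and 0.91. Without any centring these 2 genes were also below 1, at 0.987 and 0.978. ITGAV came to -0.12 and ITGB1 changed its sign, from -0.15 to 0.20. After this step 3 of the 15 collagens, 3 of the 8 laminins and 9 of the 11 integrins lay above 0, where 4, 4 and 8 did before. Of all genes 5160 of 10332 lay above 0 after it, and 5488 of 10976 before. By at least 1, 2 of the 34 genes were then higher and 3 lower, against 189 and 349 of the 10332.

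Genes that act with these families were read from lists as well. Of 28 genes of collagen maturation 21 were listed in the knockout and 22 in the reconstitution experiment, 15 and 16 of them above the median of all genes. P4HB, a subunit of prolyl hydroxylase, led them per length, with 274 and 322 CPM per kb. Next were the crosslinking enzyme LOXL2 with 143 and 187 and the isomerase PPIB with 143 and 108, which were level in the knockout experiment. COLGALT2, which adds sugars to collagen, was listed only in the reconstitution experiment, at 0.412 CPM per kb. SERPINH1, a chaperone of collagen, had 54.9 and 50.4 CPM per kb. LOX, a related crosslinking enzyme, had 1.35 and 1.34 CPM per kb. Of 5 partners of basement membranes 4 were listed. The proteoglycans AGRN and HSPG2 had 96.4 and 16.2 CPM per kb in the knockout experiment and 98.8 and 31.4 in the reconstitution experiment, and NID1, which links laminin to type IV collagen, 16.2 and 26.1. Of 17 integrin adaptors 13 were listed in both experiments, with a median of 7.24 and 7.38 log2 CPM. ILK had 158 and 162 CPM per kb, VCL 124 and 135, and TLN1, which activates integrins, 42.1 and 59.9. Of 6 other ligands 5 were listed. TNC, an adhesion-modulating glycoprotein, had 147 and 142 CPM per kb, and FN1, the ligand of the integrin with ITGA5, 8.999 and 4.13.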

How the data were processed

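The submitters' processing notes name bcl2fastq 2.20, STAR 2.5.4, edgeR 3.26.8 and the build hg19. The counting (strand included), the filter on low genes and the number of libraries are not given in the sources used here. Each of the 3 deposited tables holds an average log2 CPM per gene, computed by the authors over the libraries of a fit, which was used here as the authors' mean. In the knockout table the header is shifted by 1 name, and the fourth column was read. Both reconstitution tables hold the same averages (largest difference 0). Log2 fold changes, F statistics, p and adjusted p of the authors' own comparisons are also in these tables and were not used. There were 0 per-sample columns without a sample.

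The worth of 1 read came from the spacing of the 1000 lowest average CPM values. Of these, 97.1% (knockout) and 71.8% (reconstitution) lay within 0.1 reads of a whole number after a fitted constant offset was removed. This offset was not removed from the reads used for the intervals. Reads include the authors' prior counts. Transcript lengths, GC content and exon overlap on either strand came from GENCODE release 29 (42 of 42 genes), symbols and promoters from RefSeq. Annotation and tables differ in build, so no coordinates were joined.

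The genes and lists were chosen with earlier results of these data known. Values were given for listed genes, with emphasis on the 5 highest and 2 lowest per length in each family, chains that assemble together, the 3 largest differences in each direction and genes listed once. Single results on some genes are not reported here, in text or plots, while counts and sums include them. A protein table was not used here, so features of the proteins were not described. Scripts ran in Python 3.11.15 with scipy 1.17.1, pandas 2.3.3 and numpy 2.4.6, and plots were drawn with matplotlib 3.10.9.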

Additional observations from a re-analysis of the deposited data

How the results depend on the processing

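Without its most abundant gene, the summed level fell to 2020 and 1749 CPM for the collagens (knockout and reconstitution experiment, without COL18A1), to 756 (without LAMB1) and 817 CPM (without LAMC1) for the laminins, and to 1940 (without ITGB1) and 2123 CPM (without ITGA3) for the integrins. Taking 2 reads per library off each gene, with 2 libraries per condition assumed, kept all 6 sums within their counting intervals. The median difference of the laminins between the experiments, 0.07, was -0.051 without centring, 0.21 over genes of at least 8 CPM in both experiments and -0.15 with centring within bins of GC content, an alternative added after the data were seen, so that its sign changed with the setting. That of the integrins, 0.85, was 0.57 over genes of at least 8 CPM and 0.61 within GC bins. That of the collagens stayed between -0.46 and -0.17 under these alternatives. Another length (the median transcript or the coding sequence) turned the order of 2 of 54 pair values and moved 36 others beyond their counting interval in the same direction. ITGAV over ITGB5 in the knockout experiment was 0.498 with the median transcript and 2.34 with the coding sequence. LAMB1 over LAMC1 in the reconstitution experiment was 0.779 with the coding sequence and 1.33 with the median transcript. No paired analysis was possible because the tables hold no values of single samples, and for the same reason no replicate could be left out. Filters, normalization and prior counts were set by the authors and could not be varied.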
